A study of Caenorhabditis elegans with 30 samples.

Results

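H3K9me3 in worms that lack MET-2, SET-25 and SET-32 (the triple mutant) was set against H3K9me3 in set-32 mutant worms, a comparison that takes MET-2 and SET-25 away from animals that already lack SET-32. The part consisted of 6 of the 15 H3K9me3 ChIP-seq libraries and of the 30 samples of the series: the libraries of the triple mutant, which carries the alleles n4256 of met-2, ok5021 of set-25 and ok1457 of set-32, and those of set-32(ok1457), each fed in 3 ways, on OP50, on gfp RNAi bacteria and on oma-1 RNAi bacteria. Both strains carried the same set-32 deletion, and all animals were synchronized young adults grown at 19 °C, from which whole-worm chromatin was taken. OP50 is the usual laboratory food, bacteria for gfp RNAi make dsRNA to a gene the worm does not have, and bacteria for oma-1 RNAi make dsRNA to a germline gene of the worm. The interaction described near the end also used WT and met-2 set-25 (n4256 and ok5021), in the same feedings. The hrde-1(tm1200) libraries of these feedings entered the fit over all 15 libraries and the filter on low levels. Each strain and feeding had 1 library, so the 3 feedings stand in for replicates, and the spread given below is that between feedings, which nothing in the labels separates from technical spread.

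H3K9me3 is the trimethylated form of lysine 9 of histone H3, a mark of heterochromatin. In C. elegans it lies mainly on the arms of the autosomes, over repeats and transposons. MET-2 and SET-25 are the histone methyltransferases (HMTs) known for most H3K9 methylation in embryos, with MET-2 adding the lower methylation states and SET-25 the trimethyl state. SET-32 is a SET domain protein that acts in nuclear RNAi, the pathway in which small RNAs bound to the Argonaute protein HRDE-1 bring H3K9me3 to their target loci in the germline. Loci that lose H3K9me3 in hrde-1 mutants are known as GRH (germline nuclear RNAi-dependent heterochromatin) and loci that gain transcription there as GRTS (germline nuclear RNAi-dependent transcriptional silencing).

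Levels were RPKM in windows of 1 kb of the WS190 genome. Of 100270 windows, 98647 were tested, after 506 marked as misannotated and 1117 with a mean under 3 RPKM over the 15 H3K9me3 libraries were set aside. The step of a single read gave 2690000, 7232000 and 7056000 reads in the triple mutant on OP50, gfp RNAi and oma-1 RNAi, and 5227000, 4519000 and 3335000 reads in set-32. The study's methods name the median of H3K9me3(−) regions as a further normalization for part of the analysis. Here 21713 windows between the 5th and 25th percentile of the WT library on OP50 served as H3K9me3(−) windows, and their median set the scale unless stated. On the deposited scale the H3K9me3(−) windows had medians of 5.94, 6.09 and 6.80 RPKM in the triple mutant and 4.97, 4.43 and 4.27 RPKM in set-32, in the order OP50, gfp RNAi and oma-1 RNAi that is used throughout. The set-32 libraries and the triple mutant library on OP50 share the name prefix SG0615, while those of the triple mutant on both RNAi foods are named SG1115. No label explains the prefix, so only the OP50 pair compares strains within a prefix, and in the other pairs strain and prefix cannot be told apart. The window at 13288 kb of chromosome III had 0 RPKM in every triple mutant and every met-2 set-25 library, against 5.55, 3.32 and 6.59 RPKM in set-32 and 4.48, 8.11 and 6.91 RPKM in WT. It was the only window tested in which every triple mutant library lay at or below 0.25 times every set-32 library. RNA polymerase II (Pol II), measured on both RNAi foods, was also 0 RPKM there in every triple mutant and every met-2 set-25 library. With gfp RNAi and oma-1 RNAi, Pol II was 17.62 and 12.28 RPKM in set-32, and 16.3 and 19.13 RPKM in WT. Whether these mutants carry the sequence of this window was not tested, so its 0 is not read as a loss of H3K9me3.

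H3K9me3 was lower in the triple mutant than in set-32 across the regions that are rich in this mark in WT. In the H3K9me3(+) windows, which are the 5 percent with the highest level in the WT library on OP50 (5031 windows, at least 27.19 RPKM there), the median level was 13.0, 12.7 and 12.46 RPKM in the triple mutant, against 19.9, 20.0 and 24.0 RPKM in set-32. The levels of the triple mutant were close to each other in the 3 feedings, those of set-32 were highest with oma-1 RNAi, and the strains did not overlap. The WT library that chose these windows enters neither strain's level. In chromatin of whole animals, fewer cells with the mark and less of the mark per cell cannot be told apart.

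Divided by the H3K9me3(−) median of the same library, which needs no scaling between libraries, the H3K9me3(+) level was 2.19, 2.08 and 1.83 in the triple mutant and 4.00, 4.52 and 5.61 in set-32. The mean was 2.03 ± 0.18 in the triple mutant and 4.71 ± 0.82 in set-32 (SD, n = 3 each; exact two-sided permutation test, p = 0.1, the smallest that 3 against 3 libraries allow). The highest triple mutant library thus lay below the lowest set-32 library, and the within-prefix pair on OP50 held the smallest of the 3 differences between the strains. The ratio of the triple mutant to set-32 in this measure was 0.547 on OP50, 0.460 with gfp RNAi and 0.327 with oma-1 RNAi.

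**Figure D1:**
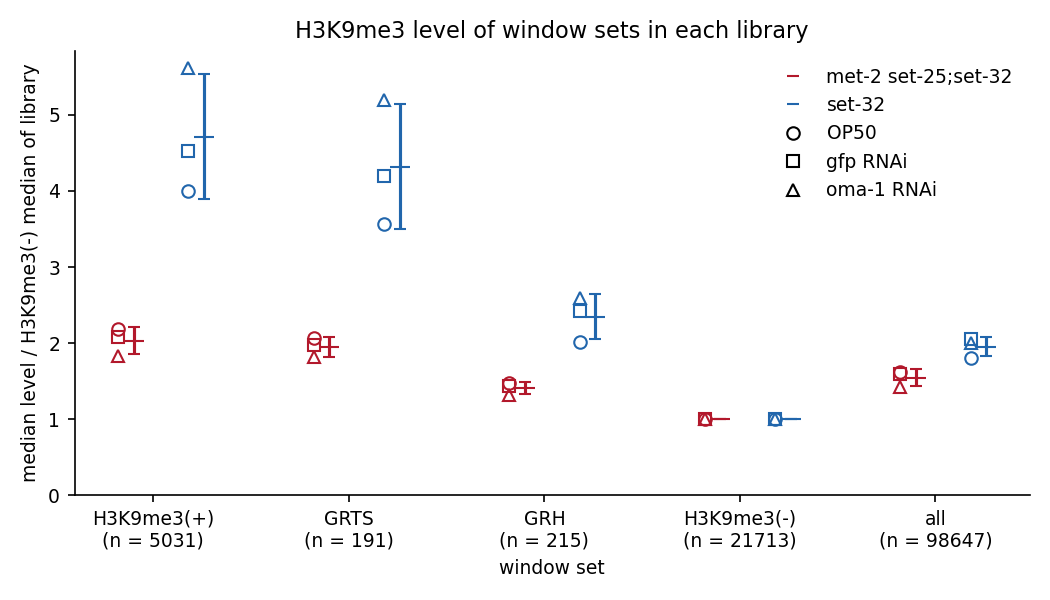
Median H3K9me3 of 5 sets of windows, divided by the H3K9me3(−) median of the same library (y axis), for the triple mutant (red, left) and set-32 (blue, right); open symbols are single libraries by feeding, and bars the mean ± SD of 3 libraries. In the H3K9me3(+) windows the triple mutant libraries lie at 1.83 to 2.19 and the set-32 libraries at 4.00 to 5.61, while the H3K9me3(−) windows are at 1 by construction.

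Window by window, the median ratio of the triple mutant to set-32 in the H3K9me3(+) windows was 0.537 on OP50, 0.465 with gfp RNAi and 0.325 with oma-1 RNAi, with a mean of 0.443 ± 0.108 (SD, n = 3). Over all windows tested the same ratio was 0.788 ± 0.089, and over the H3K9me3(−) windows it was 0.962 ± 0.018. With the deposited depth normalization alone, the H3K9me3(+) ratio was 0.5998 ± 0.0709, and that over all windows was 1.08 ± 0.035, so the H3K9me3(+) windows lay below the rest of the genome on both scales. Among the H3K9me3(+) windows the 5th and 95th percentiles of the ratio were 0.341 and 0.801 on OP50, 0.317 and 0.653 with gfp RNAi, and 0.210 and 0.510 with oma-1 RNAi. In these pairs 33, 10 and 5 of the 5031 windows had a higher level in the triple mutant than in set-32. In 99.2% of them it was below set-32 in all 3 feedings, against 50.6% of all windows tested.

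A level of at most 0.5 times set-32 was found in 38.2% of the H3K9me3(+) windows on OP50, 63.8% with gfp RNAi and 94.3% with oma-1 RNAi. Over all windows tested these shares were 5.99%, 6.82% and 17.0%. The size of the change of a window was related between feedings, with Spearman correlations of 0.433 (OP50 and gfp RNAi), 0.492 (OP50 and oma-1 RNAi) and 0.567 (gfp RNAi and oma-1 RNAi) across the 5031 windows, which share the sequence of the window and are not independent.

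The strains were also compared by the share of windows above the 99th percentile of the H3K9me3(−) windows of the same library, a limit that depends on the depth of the library and subtracts no input. Above it lay 46.9%, 64.0% and 58.1% of the H3K9me3(+) windows in the triple mutant and 97.4%, 97.4% and 98.5% in set-32. Over all windows tested the shares were 15.7%, 22.6% and 18.2% in the triple mutant and 27.4%, 29.8% and 28.3% in set-32, so the limit is no boundary between windows with and without the mark. The lowest set-32 library thus kept more of these windows above the limit than the highest triple mutant library.

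In limma over all windows, 4992 windows were lower in the triple mutant than in set-32 and 11 were higher, at a Benjamini-Hochberg adjusted p under 0.05 and at least a 2-fold change, which are 5.06% and 0.0112% of the windows tested. Of the 4992, 3407 (68.2%) were H3K9me3(+) windows, which is 67.7% of that set. All 4992 had a lower level in the triple mutant in each of the 3 feedings, and 2796, 3945 and 4946 of them were at or below 0.5 times set-32 on OP50, with gfp RNAi and with oma-1 RNAi. The windows were called on these same libraries, so these counts describe the calls and are no separate evidence. The median log2 change over all windows was -0.29 on this scale and 0.12 with depth normalization alone, where 852 windows were lower and 345 were higher. The count of lower windows depended on single libraries: it was 35 without the oma-1 RNAi feeding, and 565, 8290 and 1141 without the OP50, gfp RNAi or oma-1 RNAi library of the triple mutant. Without the same libraries of set-32 it was 10409, 1080 or 715.

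The ratio of the 2 strains was graded by the level of H3K9me3 in WT. In windows up to the 5th percentile in WT on OP50 the median ratio of the triple mutant to set-32 was 1.10 ± 0.059 (SD, n = 3 feedings), and from the 5th to the 25th it was 0.965 ± 0.018. It was 0.832 ± 0.101 from the 25th to the 50th percentile, 0.794 ± 0.111 from the 50th to the 75th and 0.696 ± 0.113 from the 75th to the 90th. In the richest windows it was 0.561 ± 0.114 from the 90th to the 95th percentile, 0.460 ± 0.111 from the 95th to the 99th, and 0.373 ± 0.101 in the top percentile. The median ratio was lower in each richer bin in all 3 feedings. No background was subtracted, and windows close to background in set-32 can show little change in this ratio. From the 25th to the 50th percentile set-32 was at 1.66, 1.85 and 1.82 times its H3K9me3(−) median. In the top percentile it was at 5.12, 5.80 and 7.58 times. The grading therefore does not give the share of H3K9me3 lost in each bin. Of the windows called lower, 917 were in the top percentile, which is 92.4% of the 992 windows there, and 2464 in the next bin (62.4%), against 2 of 4907 windows (0.041%) in the lowest bin.

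**Figure D2:**
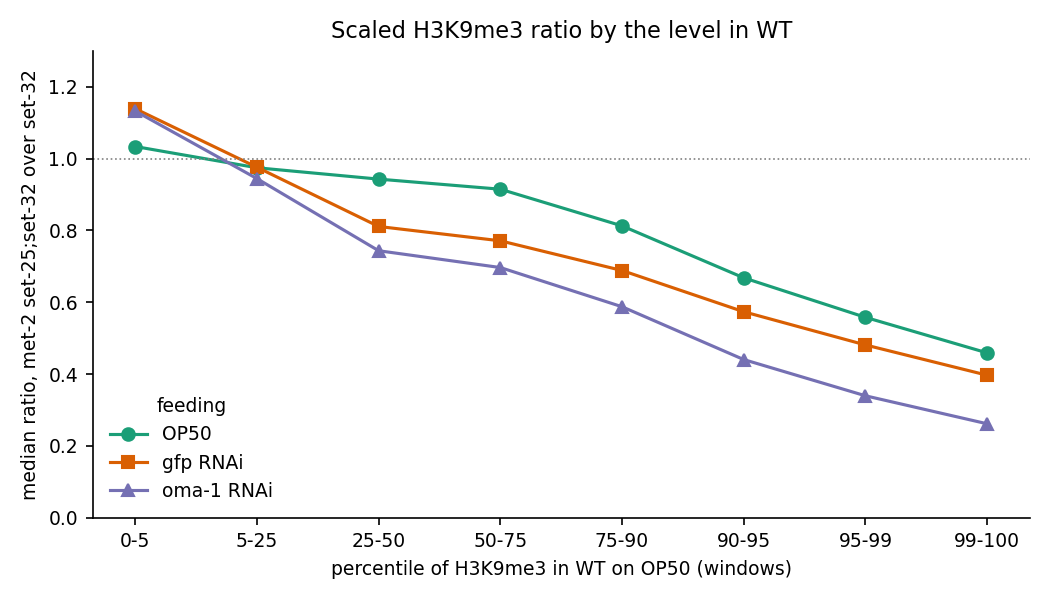
Median ratio of H3K9me3 in the triple mutant over set-32 (y axis, scaled to the H3K9me3(−) median) in windows grouped by their percentile of H3K9me3 in WT on OP50 (x axis), 1 line for each feeding. All 3 lines lie near 1 in the poorest windows and fall to 0.459, 0.397 and 0.262 in the top percentile on OP50, gfp RNAi and oma-1 RNAi.

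Most windows that were lower lay in the outer parts of the autosomes. Each chromosome was divided into a left, a middle and a right segment of equal length. Of the 4992, 4447 were in the outer segments of the 5 autosomes, 182 in their middle segments and 363 on the X, which are 8.27% of 53802, 0.668% of 27231 and 2.06% of 17614 windows. The median ratio was 0.734 ± 0.082 in the outer and 0.882 ± 0.095 in the middle segments of the autosomes, and 0.803 ± 0.122 on the X (SD, n = 3 feedings). On the scale of depth alone these ratios were 1.01 ± 0.033, 1.21 ± 0.068 and 1.10 ± 0.026. The H3K9me3(+) windows themselves had this distribution, with 4412 in the outer segments, 209 in the middle segments and 410 on the X. Within them the ratio was 0.442 ± 0.107 in the outer segments, 0.477 ± 0.117 in the middle segments and 0.441 ± 0.109 on the X, so H3K9me3(+) windows away from the arms had about the same ratio as those on the arms. The share called lower was smaller in the middle segments, with 47.4% of these windows, against 68.7% in the outer segments and 67.6% on the X.

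The arms of a chromosome were not alike. On chromosome V, 20.7% of the windows of the right segment were called lower and 2.77% of those of the left segment, and on chromosome I 14.9% of the right and 5.19% of the left segment. On chromosomes II, III and IV the left segment held more, with 11.7%, 11.6% and 6.88% of its windows, against 3.26%, 2.42% and 1.46% of the right segment. On the X the left segment had 4.58%, the middle 0.698% and the right 0.918%. In the middle segments of the autosomes between 0.277% (chromosome II) and 1.09% (chromosome V) were called.

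**Figure D3:**
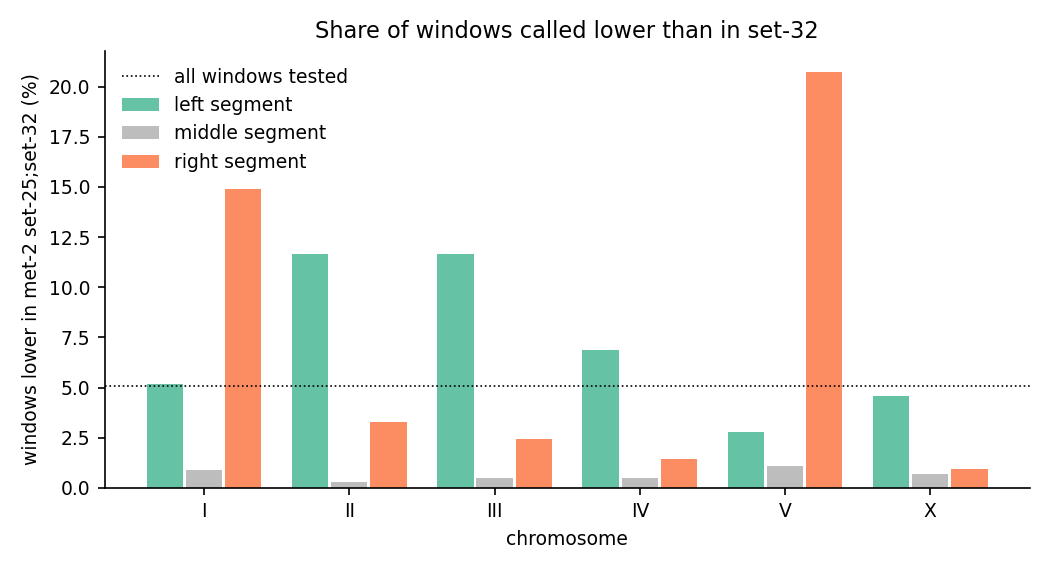
Share of windows called lower in the triple mutant than in set-32 (y axis, percent) in the left, middle and right segment of each chromosome (x axis); the dotted line is the share over all windows tested, 5.06%. The tallest bars are the right segment of chromosome V (20.7%), the right segment of chromosome I (14.9%) and the left segments of chromosomes II (11.7%) and III (11.6%).

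The lower windows formed 530 regions of at least 3 windows, joined over gaps of at most 1 kb, with 3768 windows in all, a median of 5 and a maximum of 83 windows. Chromosome V held 142 of them, chromosome I 125, II 86, III 74, IV 65 and the X 38. The regions were called in this comparison, so their values are a description. Positions are given in kb of the WS190 genome, and the genes in these windows are not named here. The regions with the largest mean change off chromosome I were the following.

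The region at 1086 to 1094 kb on the left arm of chromosome III had the largest mean log2 change, -1.76 over 7 windows. Its mean level was 4.84, 6.82 and 5.96 RPKM in the triple mutant, against 17.3, 16.1 and 20.2 RPKM in set-32. The triple mutant level was thus close to the H3K9me3(−) median of its libraries. Next was the region at 2896 to 2916 kb of chromosome IV, where 20 windows had 6.59, 7.49 and 7.71 RPKM in the triple mutant, against 18.5, 19.0 and 23.4 RPKM in set-32 (mean log2 change -1.71). At 19865 to 19870 kb of chromosome V, 5 windows had 6.10, 8.79 and 8.98 RPKM, against 19.4, 20.53 and 23.7 RPKM in set-32 (-1.68). In all 3 regions the strains did not overlap, and the scaled ratios within one prefix, on OP50, were 0.234, 0.297 and 0.263.

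The rest of the 10 regions with the largest change lay at 1917 to 1925 kb of chromosome III, at 17926 to 17930 and 19932 to 19938 kb of chromosome V, at 14322 to 14333 and 10704 to 10711 kb of chromosome II, and at 11033 to 11036 and 2777 to 2781 kb of chromosome IV. Their mean log2 changes were between -1.68 and -1.55, and every window of the 10 regions had an adjusted p of at most 0.0083 in limma. The highest starting level among them was at 11033 to 11036 kb of chromosome IV, the one region of these in a middle segment, with 20.1, 15.8 and 17.9 RPKM in the triple mutant and 40.1, 38.0 and 48.9 RPKM in set-32. There the level in the triple mutant, with no input subtracted, was well above its H3K9me3(−) median. At 14322 to 14333 kb of chromosome II, 11 windows had 14.5, 14.7 and 14.0 RPKM in the triple mutant, against 32.9, 30.6 and 39.97 RPKM in set-32.

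The 5 longest regions lay on the right arm of chromosome V, between 16919 and 17655 kb. The longest, at 17513 to 17598 kb, held 83 windows, of which 82 were H3K9me3(+) and 5 GRTS. Its mean level was 11.4, 11.7 and 11.2 RPKM in the triple mutant, against 21.2, 20.8 and 25.1 RPKM in set-32, and 53.3 RPKM in WT on OP50. The region at 17398 to 17479 kb with 72 windows had 13.3, 13.7 and 12.7 RPKM, against 23.7, 23.2 and 28.6 RPKM in set-32. The regions at 17132 to 17173 kb (40 windows), 16919 to 16958 kb (36 windows) and 17620 to 17655 kb (33 windows) had mean log2 changes of -1.48, -1.34 and -1.42. In these long regions the mean level of the triple mutant differed little between feedings.

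On the H3K9me3(−) scale the lower level spread over whole domains. There were 241 runs of at least 5 adjacent H3K9me3(+) windows off chromosome I, with 2595 windows. In all 241 the mean level, scaled to the H3K9me3(−) median, was lower in the triple mutant than in set-32 in each of the 3 feedings. The mean ratios were between 0.253 and 0.711, with a median of 0.425. Across the edge of these runs, the level in the triple mutant was 2.02 ± 0.18 times the H3K9me3(−) median in the last window inside the run and 1.67 ± 0.16 in the first window outside, against 4.47 ± 0.73 and 3.07 ± 0.28 in set-32. At 10 kb outside it was 1.60 ± 0.12 in the triple mutant and 2.44 ± 0.16 in set-32 (SD, n = 3). A step at the edge was thus still seen in the triple mutant, with a smaller height than in set-32, and the surroundings of the runs were lower in the triple mutant as well. No input was subtracted, here or for the runs described below. How much of the level left in the triple mutant is H3K9me3 was therefore not tested. The study reports that this strain lost all detectable H3K9me3 signal.

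**Figure D4:**
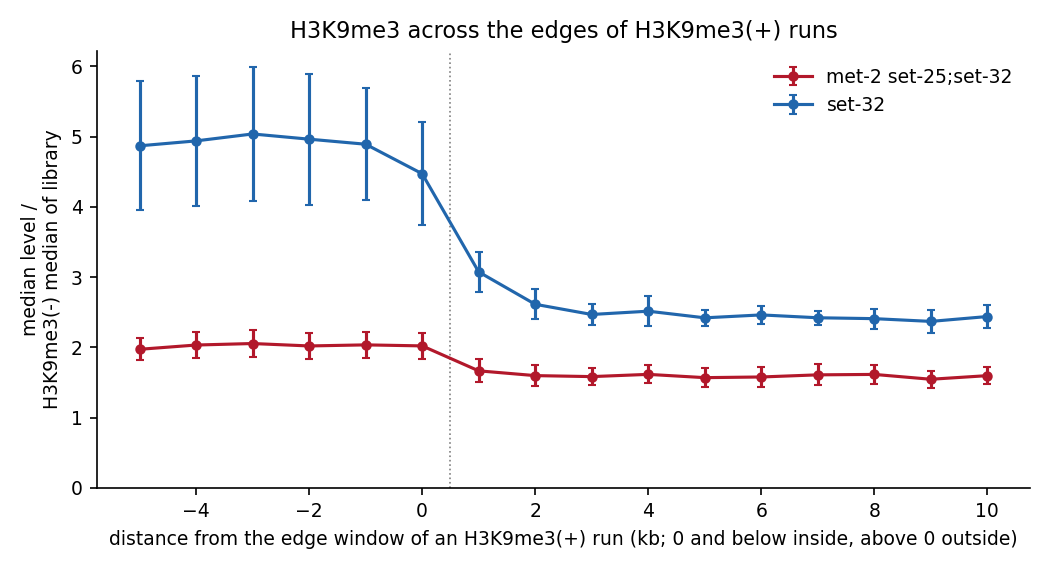
H3K9me3 across the edges of runs of at least 5 adjacent H3K9me3(+) windows: median level over windows at each distance, divided by the H3K9me3(−) median of the library (y axis; mean ± SD of 3 feedings), against the distance from the edge window in kb (x axis; 0 and below inside the run). The triple mutant (red) lies near 2 inside and near 1.6 outside, and set-32 (blue) at 4.47 to 5.04 inside and 2.37 to 3.07 outside.

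The 5 runs that changed least had mean ratios from 0.580 to 0.711 on the H3K9me3(−) scale, so on that scale their change too was towards a lower level. At 10936 to 10942 kb of chromosome II, 6 windows had 14.0, 13.6 and 13.2 RPKM in the triple mutant, against 13.4, 14.5 and 14.4 RPKM in set-32, and 49.0, 22.3 and 35.4 RPKM in WT. At 15588 to 15597 kb of chromosome V, where 6 of 9 windows are GRH, the levels were 4.90, 6.19 and 5.95 RPKM in the triple mutant and 6.60, 5.90 and 6.45 RPKM in set-32, against 48.0, 23.0 and 34.8 RPKM in WT. In both runs the deposited levels of the 2 strains overlapped, and with depth normalization alone the mean ratios were 0.966 and 0.905. At 5472 to 5481 kb of chromosome V, with 7 GRH windows of 9, they were 11.4, 12.8 and 11.8 RPKM in the triple mutant, against 13.9, 14.9 and 17.0 RPKM in set-32. The others were at 8705 to 8710 kb of chromosome V and 6567 to 6576 kb of chromosome III, both in middle segments and without GRH or GRTS windows. No window of these 5 runs was called.

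The highest level left in the triple mutant, relative to its H3K9me3(−) median, was at 694 to 699 kb of chromosome II, with 25.6, 27.9 and 27.5 RPKM in the triple mutant and 38.2, 33.4 and 38.8 RPKM in set-32. The run at 8705 to 8710 kb of chromosome V came next, with 23.1, 22.2 and 22.1 RPKM in the triple mutant, against 27.4, 26.1 and 28.3 RPKM in set-32. In these runs and at 2626 to 2631 and 18174 to 18179 kb of chromosome V, the WT library on OP50 had 38.8 to 43.0 RPKM. The last of these runs was at 4051 to 4057 kb of the X, with 24.7, 20.0 and 18.9 RPKM in the triple mutant, 42.3, 36.5 and 44.1 RPKM in set-32 and 84.2 RPKM in WT on OP50.

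The GRTS windows had about the same ratio as the other H3K9me3(+) windows, and the GRH windows a ratio nearer to 1. In the 191 GRTS windows the median level was 12.3, 12.0 and 12.3 RPKM in the triple mutant, against 17.7, 18.6 and 22.2 RPKM in set-32. The ratio was 0.587 on OP50, 0.491 with gfp RNAi and 0.350 with oma-1 RNAi, with a mean of 0.476 ± 0.119 (SD, n = 3), and 97 of the 191 windows (50.8%) were called lower, against 5.06% of all windows. In the 215 GRH windows the median level was 8.73, 8.71 and 9.0 RPKM in the triple mutant, against 10.0, 10.7 and 11.1 RPKM in set-32. Their ratio was 0.709, 0.615 and 0.490, with a mean of 0.605 ± 0.110, and 45 windows (20.9%) were called. With depth normalization alone the mean ratios were 0.644 ± 0.077 for GRTS and 0.825 ± 0.038 for GRH.

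The GRH windows held less H3K9me3 than the GRTS windows in both strains. In set-32 they were at 2.02, 2.42 and 2.59 times the H3K9me3(−) median, against 3.56, 4.20 and 5.19 for GRTS. With no background subtracted, the ratios of the 2 sets do not compare the share of the mark lost. Above the 99th percentile of the H3K9me3(−) windows lay 10.2%, 16.7% and 15.8% of the GRH windows in the triple mutant and 38.1%, 47.4% and 54.0% in set-32, against 42.4%, 56.0% and 54.5% in the triple mutant and 79.6%, 81.7% and 82.7% in set-32 for GRTS windows. The GRH shares of the triple mutant were below its shares over all windows in each feeding. The 126 GRH windows that are also H3K9me3(+) had a mean ratio of 0.536 ± 0.113, the 150 such GRTS windows 0.441 ± 0.116, and the 4776 H3K9me3(+) windows outside both sets 0.441 ± 0.107. The median log2 change of set-32 against WT in these sets was -1.15, -0.98 and -0.60. The 25 windows in both GRH and GRTS had a ratio of 0.479 ± 0.133. Differences between these sets were not tested.

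Among the 3 GRTS and 3 GRH runs with the highest H3K9me3 in WT on OP50, each GRTS run had a larger mean log2 fall than each GRH run. The closest were the GRTS run at 20296 to 20299 kb of chromosome V (-1.27) and the GRH run at 12740 to 12747 kb of chromosome II (-1.25). That GRH run also holds 1 GRTS window. Their mean scaled ratios were in the other order, with 0.414 in the GRTS run and 0.381 in the GRH run. Of the GRTS runs with the highest H3K9me3 in WT on OP50, that at 18439 to 18442 kb of chromosome V had 16.1, 15.2 and 14.3 RPKM in the triple mutant, against 34.5, 32.1 and 44.0 RPKM in set-32, with all 3 windows called lower (adjusted p of at most 0.00285 in limma). The GRTS runs at 20296 to 20299 and 17568 to 17573 kb of chromosome V had mean log2 changes of -1.27 and -1.32, and all of their 3 and 5 windows were called. Of the GRH runs, that at 12740 to 12747 kb of chromosome II had 9.01, 8.89 and 8.51 RPKM in the triple mutant, against 15.02, 16.8 and 20.9 RPKM in set-32, and 5 of its 7 windows were called. The GRH runs at 5472 to 5479 and 15588 to 15593 kb of chromosome V had mean log2 changes of -0.76 and -0.44, with no window called.

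The oma-1 RNAi library of each strain also shows the response of the oma-1 locus to dsRNA. oma-1 codes for a zinc finger protein of the oocyte. The fed dsRNA, which has to be known to place the response, is given here up to base 240 of the study's oligo table, where capitals mark 8 bases that differ from the gene, at positions 3 to 213 in steps of 30, counted from 1 at the first base shown. It stands for chrIV:8889833-8890353 of WS190 without the intron, and its strand is not given in the sources used here.
oma-1 dsRNA trigger: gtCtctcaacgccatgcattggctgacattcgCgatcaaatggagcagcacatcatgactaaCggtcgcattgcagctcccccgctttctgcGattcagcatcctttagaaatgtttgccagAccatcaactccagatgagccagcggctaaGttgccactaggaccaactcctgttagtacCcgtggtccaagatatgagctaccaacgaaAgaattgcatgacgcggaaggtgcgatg

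H3K9me3 at oma-1 with oma-1 RNAi was lower in the triple mutant than in set-32 in the first of the 2 windows that the trigger overlaps. By position, the first window holds the smaller part of the trigger and the second the larger part. The first window had 10.8 RPKM in the triple mutant and 18.6 RPKM in set-32, a ratio of 0.580 (95% counting interval 0.409 to 0.824), and the second 10.2 RPKM in the triple mutant and 8.69 RPKM in set-32, a ratio of 1.17 (0.753 to 1.87). Over both windows the ratio was 0.769 (0.588 to 1.01, from 148 reads in the triple mutant and 91 in set-32), so a difference over the 2 kb was not detectable at this depth on the deposited scale. Scaled to the H3K9me3(−) median it was 0.483 (0.369 to 0.634). The intervals cover counting error only, and there is 1 library of each strain with this feeding.

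Next, oma-1 RNAi was compared with the other feedings of the same strain. Both windows had 10.5 RPKM with oma-1 RNAi, 8.30 with gfp RNAi and 9.47 on OP50 in the triple mutant, against 13.6, 6.53 and 6.21 RPKM in set-32. The level with oma-1 RNAi over that with gfp RNAi was 1.26 (0.987 to 1.62) in the triple mutant and 2.09 (1.49 to 2.95) in set-32. By the change between these feedings the first oma-1 window ranked 26316 of 98647 in the triple mutant and 65 in set-32, and the second ranked 4153 in the triple mutant and 3973 in set-32. In set-32 the higher level with oma-1 RNAi was thus mainly in the first window. The difference between the strains in this response was not tested. Without oma-1 dsRNA the ratio of the triple mutant to set-32 over both windows was 1.52 (1.04 to 2.23) on OP50 and 1.27 (0.923 to 1.77) with gfp RNAi, and the ChIP-qPCR control region of the study on chromosome II (6708915 to 6709320) had ratios of 1.42 (0.987 to 2.04), 1.06 (0.793 to 1.43) and 1.19 (0.862 to 1.66) in the 3 feedings.

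**Figure D5:**
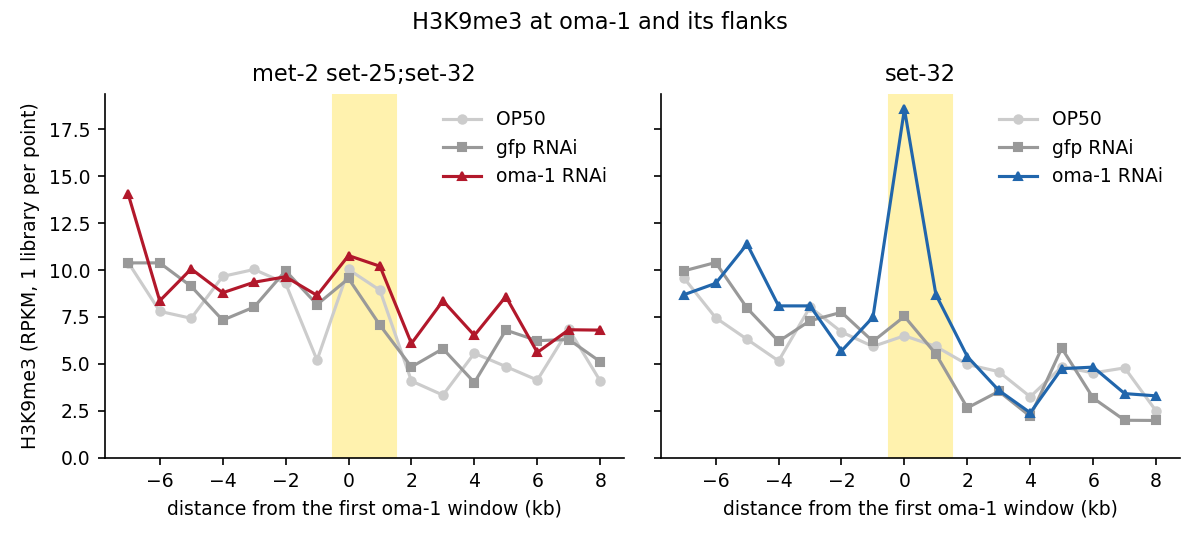
H3K9me3 in RPKM (y axis) in windows of 1 kb around oma-1 (x axis, distance from the first oma-1 window in kb; the shaded band marks the 2 oma-1 windows) in the triple mutant (left) and in set-32 (right), 1 library for each line. With oma-1 RNAi the first window is at 10.8 RPKM in the triple mutant, near the other feedings, and at 18.6 RPKM in set-32, above them.

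Pol II phosphorylated at S2 was measured in the same strains on the 2 RNAi foods, in libraries that share the prefix SG1115, with depth normalization only. In the 4992 windows with lower H3K9me3, the median Pol II level was 6.45 and 5.31 RPKM in the triple mutant with gfp RNAi and oma-1 RNAi, against 4.69 and 4.16 RPKM in set-32, and the median ratio was 1.32 and 1.24. Over all windows tested that ratio was 1.25 and 1.17, close to the value in the windows with lower H3K9me3. In the H3K9me3(+) windows it was 1.40 and 1.29, in GRTS 1.36 and 1.17, in GRH 0.914 and 0.946, and in the H3K9me3(−) windows 0.903 and 0.932. Among the regions with the largest H3K9me3 change, that at 2896 to 2916 kb of chromosome IV had 18.7 and 20.9 RPKM of Pol II in the triple mutant, against 14.2 and 10.3 RPKM in set-32, and that at 1086 to 1094 kb of chromosome III had 32.4 and 36.3 RPKM in the triple mutant, against 43.8 and 43.6 RPKM in set-32. Pol II differences were not tested here.

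The 11 windows that were higher in the triple mutant were poor in H3K9me3, with 0.900 to 3.73 RPKM in the set-32 libraries and 2.79 to 15.3 RPKM in the triple mutant. They formed no region of 3 windows. The window at 18048 kb of chromosome V had 2.79, 15.3 and 11.6 RPKM in the triple mutant, against 3.68, 1.88 and 1.72 RPKM in set-32, so the triple mutant was above set-32 in the RNAi pairs and not in the OP50 pair, the one within a prefix. The stretch around it, chosen after its values were seen, from 18047 to 18064 kb (13 windows tested), had 2.77 RPKM in the triple mutant on OP50 and 2.29, 2.04 and 1.86 RPKM in set-32, the libraries named SG0615, against 10.3 and 7.40 RPKM in the triple mutant on gfp RNAi and oma-1 RNAi. All other H3K9me3 libraries had 7.15 to 14.4 RPKM there. The stretch was picked as the largest group of windows in which every SG0615 library lay below all other H3K9me3 libraries. Its match with the prefix was thus set by the choice and is no separate result. Every set-32 library is named SG0615, so for these strains only the triple mutant library on OP50 sets prefix and strain apart.

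The change without MET-2 and SET-25 was also compared between the set-32 background and animals with SET-32, as the difference (triple mutant − set-32) − (met-2 set-25 − WT) in the same limma fit. These 2 contrasts share no library. Of 98647 windows, 7 (0.0071%) had a difference below 0 and 26 (0.0264%) above 0 at an adjusted p under 0.05 and at least 2-fold. A value above 0 means a smaller fall on the set-32 background, or a rise there. Of the 26, 9 were GRH windows, 1 of them also GRTS, and 7 were H3K9me3(+). The largest group of them was the region at 15587 to 15595 kb of chromosome V, with 6 windows called, of which 5 are GRH. Its mean level was 5.18, 5.88 and 5.58 RPKM in the triple mutant and 5.84, 4.45 and 5.43 RPKM in set-32, against 7.01, 7.67 and 7.88 RPKM in met-2 set-25 and 43.6, 20.1 and 31.7 RPKM in WT. All 3 mutants were at a low level in every library, and WT was far above them. The other region, at 18053 to 18056 kb of chromosome V, lies in the stretch that was picked by the prefix. A further 3 of the 26 windows lay at 13292 to 13297 kb of chromosome III, a few kb from the window at 0 in the triple mutant and met-2 set-25.

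Over the window sets, the median interaction was -0.27 on the log2 scale for all windows, 0.23 for H3K9me3(+), 0.51 for GRTS and 0.73 for GRH windows. The median change of met-2 set-25 against WT was -1.36, -1.61 and -1.36 in these 3 sets, and that of the triple mutant against set-32 was -1.12, -1.02 and -0.63. WT on OP50 chose the H3K9me3(+) windows and is a library of this interaction, so its value for that set is no independent result. The same library chose the H3K9me3(−) windows that scale all libraries. The values for all windows, GRTS and GRH therefore depend on that choice too. The WT libraries carry the prefix SG0315 and differed among themselves in the H3K9me3(+) to H3K9me3(−) level, with 13.4, 3.76 and 6.90.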

How the data were processed

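H3K9me3 and Pol II S2 ChIP-seq libraries of C. elegans young adults were deposited as RPKM values in windows of 1 kb. The authors aligned reads to WS190 using Bowtie 0.12.7, took only perfect matches, shared a read equally among its matches and normalized for sequencing depth. Deposited flags mark misannotated, GRH and GRTS windows. The columns of the authors' own comparisons (7) hold their calls and were not used, and input libraries were not analysed here.

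Library columns were tied to samples through the study's list of libraries. The filter removed windows averaging less than 3 RPKM in the H3K9me3 libraries. Libraries were scaled to their H3K9me3(−) median, and log2(RPKM + 1) of all 15 libraries was fitted with limma 3.58.1 in R 4.3.3, with strain, feeding as a block and a trend. A call needed a 2-fold change and an adjusted p (Benjamini-Hochberg) under 0.05. limma estimated infinite prior degrees of freedom: 1 spread was shared by windows of similar level. A fold change on this scale understates that of low windows. The fit was tested on simulated data. Reads per window were taken from the step of a single read (81.7% to 91.2% of low values were within 0.1 of a whole read, so no count test was run), with a median of 26.0 to 70.1 reads per window in the 6 libraries and 95% exact counting intervals. The regions named were the loci of the study's oligo table on chromosomes II and IV, the 10 largest changes, the 5 longest regions, the 5 H3K9me3(+) runs that changed least, the 5 with the highest level left, and the 3 GRH and 3 GRTS runs highest in WT, all off chromosome I. The window sets, regions and lists were chosen with earlier results of these data known. Python 3.11.15 (pandas 2.3.3, numpy 2.4.6, scipy 1.17.1) ran the rest.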

Additional observations from a re-analysis of the deposited data

Results flagged for a closer look

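The effect of removing MET-2 and SET-25 differed between the set-32 background and animals with SET-32 in 7 windows with an interaction below 0 and in 26 windows above 0, tested as the interaction in limma. The sum of both, 33, was 3 without the oma-1 RNAi feeding, 11 or 8 without the triple mutant library on gfp RNAi or oma-1 RNAi, 63 or 19 without the set-32 library on OP50 or oma-1 RNAi, 15 or 16 without the met-2 set-25 library on OP50 or oma-1 RNAi, and 217 without the WT library on gfp RNAi. Of the 7 windows below 0, 4 lay within 87 kb of the left end of the X and none was H3K9me3(+).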

How the results depend on the processing

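On the scale of depth alone, 852 windows were lower and 345 higher, and 329 had an interaction. The mean ratios of the triple mutant to set-32 were then 0.5998 for H3K9me3(+), 0.825 for GRH, 0.644 for GRTS, 1.01 for the outer and 1.21 for the middle segments of the autosomes, and the median ratio of the 15 most changed and longest regions was 0.424, against 0.313. With all windows as the scale, an alternative added after seeing the data, 1477 windows were lower, 139 higher and 731 had an interaction. A pseudocount of 3 RPKM gave 2973 lower windows and 0 higher in limma (939 higher at an unadjusted p under 0.05). H3K9me3(−) windows from WT with gfp RNAi gave 25 higher windows and 114 with an interaction, and the fit without the feeding block gave 16 with an interaction. For oma-1 with oma-1 RNAi, the ratio was 0.483 on the H3K9me3(−) scale and 0.307 with the gfp RNAi level subtracted. Leaving out 1 feeding or library gave 35 to 10409 lower windows, 0 to 77 higher and 3 to 217 with an interaction. Without the feedings or libraries in turn, 11 higher windows became 70 (OP50 feeding), 31 (gfp RNAi feeding), 32 or 6 (triple mutant with gfp RNAi or oma-1 RNAi) and 77 or 6 (set-32 on OP50 or oma-1 RNAi). Leaving out a feeding moved the ratios between 0.395 and 0.501 for H3K9me3(+), 0.552 and 0.662 for GRH, 0.420 and 0.539 for GRTS, 0.695 and 0.777 for the outer and 0.828 and 0.918 for the middle segments, and the difference in H3K9me3(+) over H3K9me3(−) level between -3.11 and -2.13. The causes were not tested. No paired analysis was possible because no strain and feeding had a second library to pair by replicate number. The match by feeding was instead kept as a block in the fit, and without it 4189 windows were lower. Depth limits single windows most in the triple mutant on OP50, with a median of 26.0 reads a window.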

Other observations

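Of the 98647 windows tested, 31 had all 4 H3K9me3 libraries named SG0615 below all 11 other H3K9me3 libraries. Whether this count exceeds what the order of 15 libraries gives without any effect of the prefix was not tested. The largest group of them spanned 18047 to 18064 kb of chromosome V, with 13 windows tested. There Pol II, whose libraries of both strains are named SG1115, was 8.13 and 7.83 RPKM in the triple mutant with gfp RNAi and oma-1 RNAi, against 8.25 and 8.10 RPKM in set-32, and 8.10 to 10.4 RPKM in the other strains.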
